A study of Homo sapiens with 12 samples.

Results

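The genes described here are 55 genes of the actin cytoskeleton and of focal adhesions, the contacts through which a cell grips its surroundings, chosen by name. Integrins, the moesin family and the thymosins were left out of the list. On the array 51 of the 55 carried a gene symbol of their own, among 22411 genes in all, and the filamins FLNA and FLNC, the tropomyosin TPM3 and the Arp2/3 subunit ACTR2 were not analysed here. For a gene with more than 1 transcript cluster (a set of probes summarised as 1 transcript), the cluster with the highest mean over the 12 arrays was used. Genes of low mean signal, below 4.54 on the log2 scale, were not tested, which left 50 members among 14940 genes. TAGLN, the smooth muscle protein transgelin, fell below that limit, with group means between 4.48 and 4.53.

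All 12 arrays came from MDA-MB-231, a human cell line grown from a triple-negative breast cancer, in 4 groups of 3. The control group received a negative control oligonucleotide, and the other groups a miR-183-5p mimic whose ends are those of the reference (the archetype), a mimic whose ends both lie 2 nucleotides upstream (minus2) or a mimic whose ends both lie 2 nucleotides downstream (plus2). Such end variants of a microRNA are called isomiRs. Every group was transfected at 50 nM with a lipid reagent for 48 h, and no untransfected group was analysed here. A mimic delivered at such a dose is added on top of whatever miR-183-5p the line itself makes, in 1 cell line. Nothing in the labels places the 3 arrays of a group in separate cultures, so p-values cover only the spread among these samples, and part or all of it may be technical.

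Actin monomers polymerise into filaments that push the membrane forward and, with myosin II, pull on it. The Arp2/3 complex and the formins start filaments, capping protein and cofilin end or cut them, and tropomyosins and calponins coat them. At focal adhesions talin and kindlin bind the tails of integrins, and paxillin, vinculin, zyxin and the focal adhesion kinase gather on them. Many genes of this system are transcribed by SRF, the serum response factor, together with coactivators that sense free actin monomers. In MDA-MB-231, an invasive line, this machinery drives migration.

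The sequences of the 3 mimics are shown because a microRNA selects its targets mainly by its seed, which the shifted ends replace. Capitals mark the seed, bases 2 to 8 from the 5′ end, and each sequence is written 5′ to 3′.
minus2: tGTATGGCactggtagaattca
archetype: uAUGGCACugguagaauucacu
plus2: tGGCACTGgtagaattcactgt
All 3 have 22 nucleotides. The archetype is the RefSeq sequence of hsa-miR-183-5p, on the minus strand of GRCh38.p14 at chr7:129774967-129774988, and the isomiRs are given in the labels, in DNA letters. Each isomiR shares a run of 20 nucleotides with the archetype and 18 with the other isomiR. Of the seed itself, each isomiR shares a run of 5 bases with the archetype and only 3 with the other.

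Replicate arrays correlated at r = 0.997 to 0.999 over the tested genes. The median SD between replicates of the tested members ran from 0.0369 in the archetype group to 0.0630 in the plus2 group. Of the marker lists, 7 genes of MDA-MB-231 such as VIM and CD44 averaged a log2 signal of 12.3 on the control arrays. On the plus2 arrays they averaged 11.91 to 11.96. ESR1 and PGR, receptors that triple-negative cells lack, were below the limit. ERBB2, the other such receptor, had no transcript cluster with a symbol of its own and was not read. Mean levels of 7 fibroblast markers lay between 4.45 and 4.69 over the 12 arrays, and those of 6 smooth muscle markers between 4.56 and 4.68, with DES and ACTG2 below the limit. The 9 white blood cell markers averaged between 5.38 and 5.54, with PTPRC, CD2, MS4A1 and ITGAM below the limit and, from control to plus2, CD68 at 13.7 and 13.1, CD14 at 4.90 and 5.19 and CSF1R at 5.32 and 5.53. Of the epithelial genes, CDH1 lay at 4.92 in control and 6.05 with plus2, and EPCAM at 8.61 and 8.65. The part of these shifts in the results was not tested. The values come from bulk RNA, hybridised in equal amounts, so fewer cells of a type and less RNA per cell cannot be told apart.

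The first question is whether the shifted ends changed what the microRNA did to the cytoskeletal genes. A difference was called where limma's moderated test, fitted on all 14940 genes, gave an adjusted p (Benjamini-Hochberg) under 0.05, and "rose" and "fell" are used only of called differences. With the archetype 22 of the 50 tested members were called against control, 8 higher and 14 lower, against 24.6% of all tested genes, 14.3% higher and 10.3% lower. With minus2 24 members were called, 12 in each direction, against 29.4% of all genes (17.5% higher, 11.9% lower), and after an added quantile normalisation between arrays these became 9 higher and 15 lower. With plus2 35 members were called, 14 higher and 21 lower, against 33.6% of all genes (17.4% higher, 16.2% lower). The members are strongly expressed, with a median log2 signal of 11.7, and a call is more frequent at high signal. Among the 1129 genes at or above that signal, 39.9% were called with the archetype, against 45.5% with minus2 and 49.2% with plus2. Of the 25 members in that range, 12, 11 and 19 were called. With plus2 13 of the 25 were lower, against 26.2% of the genes in that range. The shares of members called with the archetype and with minus2 were near the background at their signal, and the share with plus2 lay above it. The members were chosen with earlier results of these data known, so these shares are a description and not a test. Median log2 differences from control over the 50 members were -0.02, 0.05 and -0.08 with the archetype, minus2 and plus2, against 0.01, 0.01 and 0.00 over all genes. At least a 1.5-fold difference was reached by 3 called members with the archetype, by 4 with minus2 and by 8 with plus2, against 2.77%, 3.27% and 4.83% of all genes. Of the 1129 genes at or above the members' median signal, 40 were higher by that much and 33 lower with the archetype. With minus2 these were 39 and 38, and with plus2 33 and 59. Of the 25 members in that range 2 were higher and 1 lower, 2 and 1, and 1 and 2. A moderated F test over the 4 groups called 41 of 50 members, against 51.7% of all genes. At or above the members' median signal it called 20 of 25 members, against 73.4% of all such genes.

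**Figure D1:**
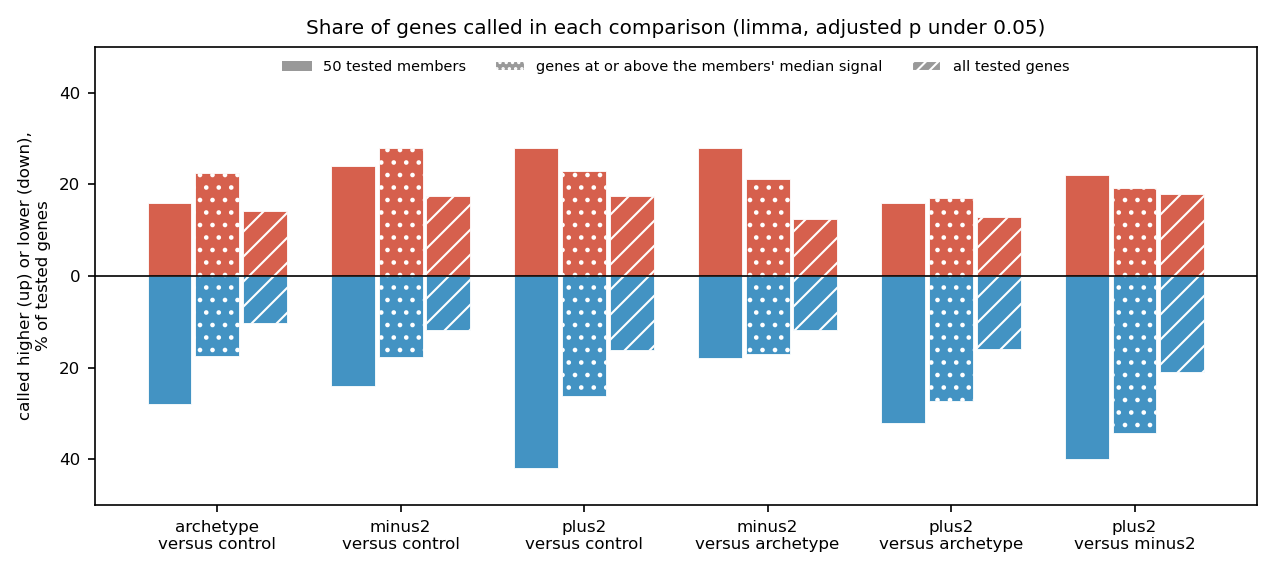
Percent of genes called higher (upward bars) or lower (downward bars) in each of the 6 comparisons, for the 50 tested members, for all genes at or above the members' median signal and for all 14940 tested genes. With plus2 against control 42.0% of members were called lower and 28% higher, against 16.2% and 17.4% of all genes.

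**Figure D2:**
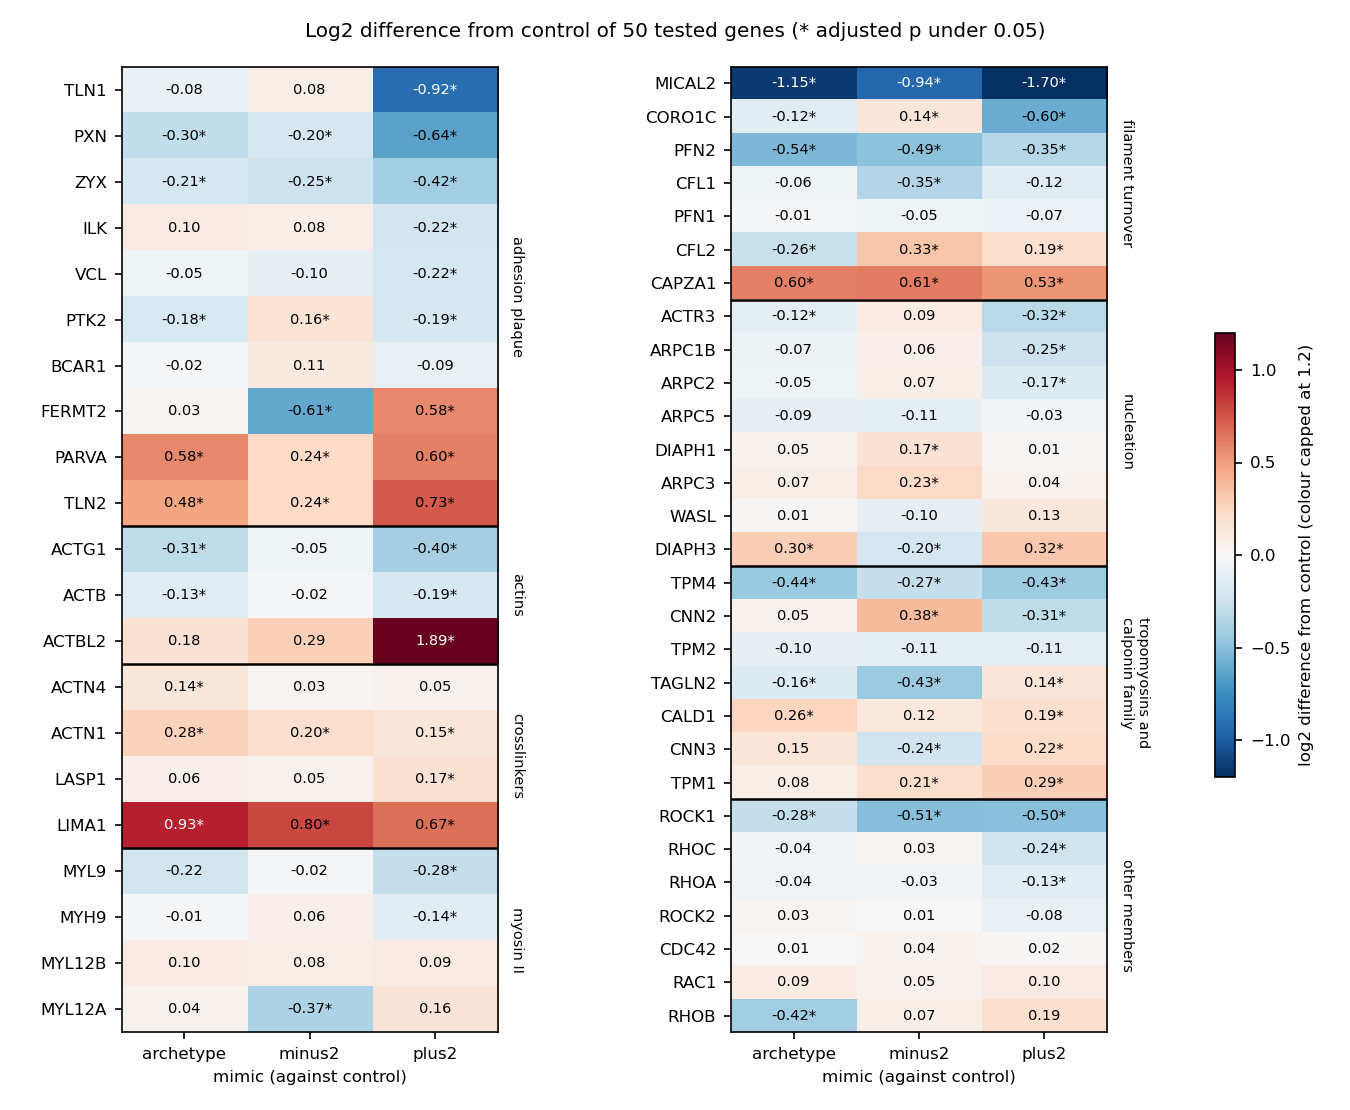
Log2 difference from control of the 50 tested members with each mimic, grouped by role, with an asterisk where the difference was called and the colour scale ending at 1.2. MICAL2 was lower and LIMA1 and CAPZA1 were higher with every mimic, whereas FERMT2 and CNN2 moved in opposite directions with minus2 and plus2.

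The largest fall was that of MICAL2, an enzyme that oxidises actin and so takes filaments apart, and it occurred with every mimic. Its log2 signal was 12.90, 12.94 and 12.91 on the control arrays, 11.77, 11.76 and 11.78 with the archetype, 11.95, 11.99 and 11.99 with minus2, and 11.24, 11.23 and 11.19 with plus2. The 4 groups did not overlap, with control highest, then minus2, the archetype and plus2. Relative to control, it fell by 1.15 ± 0.04 on the log2 scale (SE) with the archetype, which is 2.22-fold (limma adjusted p = 2.9e-09). With minus2 it fell by 0.94 ± 0.04, or 1.92-fold (adjusted p = 1.4e-08), and with plus2 by 1.70 ± 0.04, or 3.25-fold (adjusted p = 1.2e-10). All 3 comparisons share the control arrays. The mimics also differed from each other, plus2 being lower than the archetype by a log2 difference of -0.55 (adjusted p = 9.8e-07) and than minus2 by -0.76 (adjusted p = 2.6e-08). A second transcript cluster, which the platform annotation names MICALCL and RefSeq now assigns to MICAL2, lay at a mean of 6.04 and differed from control by 0.08, 0.14 and 0.08, with no test. With the mean of both clusters in place of the brighter one, the differences of MICAL2 were -0.53, -0.40 and -0.81 with the archetype, minus2 and plus2 (adjusted p = 3.4e-06, 3e-05 and 9.7e-08).

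Of the 7 tested members that act on filament turnover, 5 were called with the archetype (24.6% of all genes), as were 6 with minus2 (29.4%) and 5 with plus2 (33.6%). Among all genes at or above the members' median signal the shares called were 39.9%, 45.5% and 49.2%. CAPZA1, a subunit of the protein that caps the growing end of filaments, was at 13.42, 13.48 and 13.39 in control and between 13.91 and 14.07 on all 9 mimic arrays. It was higher by 0.60 ± 0.05 with the archetype (limma adjusted p = 2.5e-06), by 0.61 ± 0.05 with minus2 and by 0.53 ± 0.05 with plus2. The mimic groups overlapped each other and none of the 3 differences between them was called, with 95% intervals of -0.09 to 0.11 for minus2 against the archetype, -0.17 to 0.03 for plus2 against the archetype and -0.19 to 0.01 for plus2 against minus2. PFN2, a profilin that delivers actin monomers to growing ends, had 7.11, 7.02 and 6.97 in control, 6.47, 6.51 and 6.52 with the archetype, 6.49, 6.55 and 6.59 with minus2, and 6.63, 6.69 and 6.74 with plus2. All mimic arrays were below all control arrays, by 0.54 ± 0.05, 0.49 ± 0.05 and 0.35 ± 0.05 on average (adjusted p = 1.1e-05, 2e-05 and 0.0002). Its paralog PFN1 was not called with any mimic, at differences of -0.01 to -0.07.

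The cofilins, which sever filaments, differed in pattern. CFL2, the form named for muscle, was at 10.81, 10.91 and 10.69 in control, 10.54, 10.51 and 10.57 with the archetype, 11.15, 11.14 and 11.11 with minus2, and 10.97, 10.97 and 11.06 with plus2. The archetype arrays were the lowest and both isomiRs lay above control, with no overlap between any 2 groups. CFL2 fell by 0.26 ± 0.05 with the archetype (limma adjusted p = 0.0038) and rose by 0.33 ± 0.05 with minus2 (adjusted p = 0.00072). Its rise with plus2, of 0.19 ± 0.05 (adjusted p = 0.017), was no longer called without control replicate 3 (0.14, adjusted p = 0.065) or without plus2 replicate 3 (0.16, adjusted p = 0.055). CFL1, the general form, fell only with minus2 among the comparisons with control, by 0.35 ± 0.05 (adjusted p = 0.00016), and minus2 was also lower than the archetype (-0.30, adjusted p = 0.00065) and than plus2, which was higher by 0.23 (adjusted p = 0.0021). The last call was lost with the mean of both CFL1 clusters (0.15, adjusted p = 0.094). The cluster used lay at a mean of 7.87, and the other at 3.75, below the limit for testing.

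CORO1C, a coronin that recycles branched filaments at the leading edge, had 13.48, 13.50 and 13.51 in control, 13.39, 13.36 and 13.37 with the archetype, 13.63, 13.70 and 13.60 with minus2, and 12.88, 12.95 and 12.87 with plus2. The plus2 arrays were the lowest by far and no groups overlapped. With plus2 the fall was 0.60 ± 0.04 (limma adjusted p = 5.8e-07), and plus2 was lower than minus2 by -0.74 (adjusted p = 8.9e-08). The smaller differences of -0.12 ± 0.04 with the archetype (adjusted p = 0.042) and 0.14 ± 0.04 with minus2 (adjusted p = 0.019) were not stable. The first was lost without any 1 control or archetype array or without minus2 replicate 1 or 3 (adjusted p up to 0.11), and the second without control replicate 1 or 2 or minus2 replicate 2 (up to 0.082) and after quantile normalisation (0.02, adjusted p = 0.71).

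**Figure D3:**
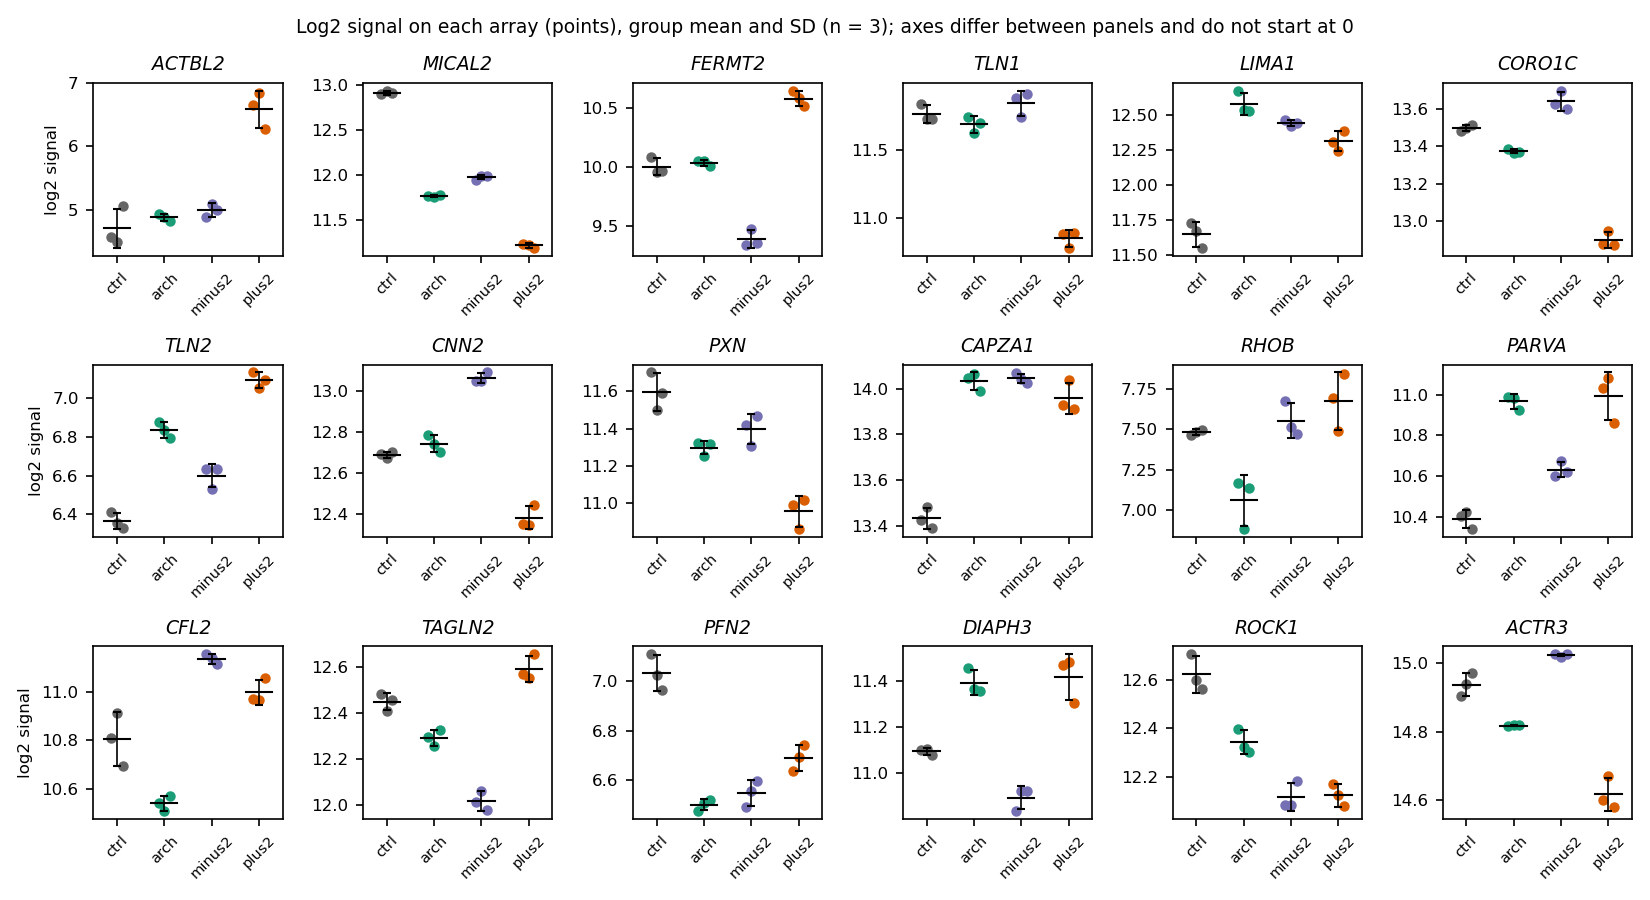
Log2 signal of 18 members on each of the 12 arrays, with a point per array and the mean and SD (n = 3) of each group. MICAL2 lay at 12.9 on all control arrays and below 12 on all mimic arrays, and ACTBL2 was above 6.2 only on the plus2 arrays.

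In the adhesion plaque all 10 members differed among the 4 groups by the F test, against 51.7% of all genes and 73.4% of those at or above the members' median signal. Against control 5 were called with the archetype (24.6% of all genes), as were 6 with minus2 (29.4%) and 9 with plus2 (33.6%), and with plus2 6 of these were lower. At or above the members' median signal the shares of all genes called were 39.9%, 45.5% and 49.2%. TLN1, the main talin, which couples integrins to actin, was at 11.85, 11.73 and 11.73 in control, 11.75, 11.63 and 11.70 with the archetype, 11.88, 11.74 and 11.92 with minus2, and 10.88, 10.78 and 10.89 with plus2. The plus2 arrays lay apart from the other 9, which overlapped. TLN1 fell by 0.92 ± 0.06 with plus2, or 1.89-fold (limma adjusted p = 4.1e-07), and differed from control by -0.08 ± 0.06 with the archetype (adjusted p = 0.41) and by 0.08 ± 0.06 with minus2 (adjusted p = 0.36). The direct differences of plus2 were -0.84 from the archetype (adjusted p = 1.8e-06) and -0.998 from minus2 (adjusted p = 1.6e-07).

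The second talin, TLN2, went the other way. Its signal was 6.41, 6.35 and 6.33 in control, 6.88, 6.84 and 6.80 with the archetype, 6.64, 6.53 and 6.63 with minus2, and 7.13, 7.05 and 7.10 with plus2. Every mimic array was above every control array, with minus2 nearest to control and plus2 highest. TLN2 rose by 0.48 ± 0.05 with the archetype (limma adjusted p = 1.5e-05), by 0.24 ± 0.05 with minus2 (adjusted p = 0.0021) and by 0.73 ± 0.05 with plus2 (adjusted p = 3.3e-07). Thus with plus2 one talin transcript was lower than in control and the other higher, each by over 1.5-fold.

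FERMT2, the integrin activator kindlin-2, separated the isomiRs more than any other member but ACTBL2. It was at 10.08, 9.96 and 9.96 in control, 10.05, 10.05 and 10.00 with the archetype, 9.34, 9.47 and 9.35 with minus2, and 10.64, 10.58 and 10.51 with plus2. Control and archetype arrays overlapped, all minus2 arrays lay below them and all plus2 arrays above. FERMT2 fell by 0.61 ± 0.05 with minus2 (limma adjusted p = 7.1e-06) and rose by 0.58 ± 0.05 with plus2 (adjusted p = 7.5e-06), so that plus2 exceeded minus2 by 1.19 ± 0.05, or 2.28-fold (adjusted p = 2.1e-08). With the archetype the difference from control was 0.03 ± 0.05, with a 95% interval of -0.08 to 0.15.

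PXN, paxillin, a scaffold of the adhesion, was at 11.70, 11.50 and 11.59 in control, 11.32, 11.26 and 11.32 with the archetype, 11.42, 11.31 and 11.47 with minus2, and 10.99, 10.86 and 11.02 with plus2. All mimic arrays lay below control and the plus2 arrays lay lowest. It fell by 0.64 ± 0.06 with plus2 (limma adjusted p = 1.3e-05) and by 0.30 ± 0.06 with the archetype (adjusted p = 0.0048). With minus2 it was lower by -0.20 ± 0.06 (adjusted p = 0.035), a call lost without control replicate 1 (-0.15, adjusted p = 0.13), control replicate 3, minus2 replicate 1 or minus2 replicate 2 (-0.15, adjusted p = 0.14). ZYX, zyxin, which gathers on adhesions under tension, also fell with each mimic, by 0.21 ± 0.05, 0.25 ± 0.05 and 0.42 ± 0.05 (adjusted p = 0.0084, 0.0024 and 5e-05).

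PARVA, alpha-parvin, which ties adhesions to actin, rose with each mimic. It was at 10.40, 10.42 and 10.34 in control, 10.99, 10.99 and 10.93 with the archetype, 10.60, 10.68 and 10.62 with minus2, and 11.04, 11.08 and 10.86 with plus2. The archetype and plus2 arrays overlapped at the top, with minus2 between them and control. The rises were 0.58 ± 0.06 with the archetype (limma adjusted p = 1.9e-05), 0.24 ± 0.06 with minus2 (adjusted p = 0.0069) and 0.60 ± 0.06 with plus2 (adjusted p = 8.6e-06). Its partner in the same complex, the integrin-linked kinase ILK, fell by 0.22 ± 0.04 with plus2 (adjusted p = 0.0023) and was not called with the archetype (0.10 ± 0.04) or minus2 (0.08 ± 0.04).

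Of the other plaque genes, PTK2, the focal adhesion kinase, was lower with the archetype (-0.18 ± 0.05, limma adjusted p = 0.026) and with plus2 (-0.19 ± 0.05, adjusted p = 0.015) and higher with minus2 (0.16 ± 0.05, adjusted p = 0.039). The archetype call was lost without any 1 control array or without archetype replicate 2 or 3 (adjusted p 0.054 to 0.094). The minus2 call was lost without any 1 control array, archetype replicate 3 or minus2 replicate 1 or 3 (0.055 to 0.14), and the plus2 call without plus2 replicate 1 (0.054). The direct contrast was firmer: plus2 was lower than minus2 by -0.35 ± 0.05 (adjusted p = 0.00023), and every plus2 array lay below every minus2 array. VCL, vinculin, which reinforces loaded talin, fell by 0.22 ± 0.05 with plus2 (adjusted p = 0.0093). BCAR1, the docking protein p130Cas, was not called against control and was lower with plus2 than with minus2 (-0.20 ± 0.04, adjusted p = 0.0021).

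Among the actins, ACTBL2, a little-studied beta-actin-like gene, rose only with plus2. Its signal was 4.56, 4.49 and 5.05 in control, 4.94, 4.88 and 4.82 with the archetype, 4.88, 5.10 and 5.00 with minus2, and 6.65, 6.84 and 6.27 with plus2. The first 3 groups overlapped each other near the limit for testing, where nothing shows that a signal exceeds background, and plus2 lay above all of them. The difference of plus2 from control was 1.89 ± 0.15, or 3.70-fold (limma adjusted p = 2.8e-06), and plus2 was also above the archetype by 1.71 (adjusted p = 1.3e-05) and above minus2 by 1.60 (adjusted p = 7.7e-06). Because the other groups may be at background, these sizes depend on the floor of the array.

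For the cytoplasmic actins that make up most filaments, the called differences from control were falls, smaller in size than the rise of ACTBL2. ACTG1, gamma-actin, was at 17.84, 17.82 and 17.83 in control, 17.49, 17.54 and 17.55 with the archetype, 17.73, 17.79 and 17.83 with minus2, and 17.33, 17.47 and 17.50 with plus2. Archetype and plus2 arrays lay below the other 2 groups, which overlapped. It fell by 0.31 ± 0.05 with the archetype (limma adjusted p = 0.00075) and by 0.40 ± 0.05 with plus2 (adjusted p = 6.9e-05), and differed by -0.05 ± 0.05 with minus2 (95% interval -0.16 to 0.06). ACTB, beta-actin, fell by 0.19 ± 0.04 with plus2 (adjusted p = 0.0015) and was lower by -0.13 ± 0.04 with the archetype (adjusted p = 0.023), a call lost without control replicate 2 or 3 or any 1 archetype array (adjusted p 0.051 to 0.076). Actin genes and their pseudogenes are nearly identical in sequence, so probes of one may bind transcripts of another, and the assignment of probes to genes was not checked here.

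All called differences of the crosslinkers against control were rises. LIMA1, or eplin, which bundles and stabilises filaments, was at 11.72, 11.67 and 11.55 in control, 12.68, 12.54 and 12.53 with the archetype, 12.47, 12.42 and 12.45 with minus2, and 12.31, 12.25 and 12.39 with plus2. All mimic arrays lay above control, highest with the archetype. LIMA1 rose by 0.93 ± 0.06 with the archetype, or 1.91-fold (limma adjusted p = 5e-07), by 0.80 ± 0.06 with minus2 (adjusted p = 1.8e-06) and by 0.67 ± 0.06 with plus2 (adjusted p = 4.7e-06). Plus2 was lower than the archetype (-0.27, adjusted p = 0.0046), whereas minus2 against the archetype was not called (-0.14, 95% interval -0.26 to -0.01, adjusted p = 0.12).

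Of the alpha-actinins, which crosslink parallel filaments, ACTN1 rose by 0.28 ± 0.04 with the archetype (limma adjusted p = 0.00082) and by 0.20 ± 0.04 with minus2 (adjusted p = 0.0048). The latter was 0.11 after quantile normalisation (adjusted p = 0.12). With plus2 ACTN1 was higher by 0.15 ± 0.04 (adjusted p = 0.027), a call lost without control replicate 2 or 3 or plus2 replicate 2 or 3 (adjusted p 0.054 to 0.095). ACTN4 was higher by 0.14 ± 0.04 with the archetype (adjusted p = 0.027), lost without control replicate 2 or 3 or archetype replicate 1 or 3 (0.078 to 0.099). LASP1, an adaptor of filaments and adhesions, was higher by 0.17 ± 0.05 with plus2 (adjusted p = 0.016), lost without control replicate 2 (0.14, adjusted p = 0.068).

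The 7 tested tropomyosin and calponin family genes, which coat filaments, split in direction, with 1 rise and 2 falls with the archetype, 2 and 3 with minus2, and 4 and 2 with plus2. Of all genes, 14.3%, 17.5% and 17.4% were higher and 10.3%, 11.9% and 16.2% lower in these comparisons. CNN2, a non-muscle calponin that steadies filaments, was at 12.69, 12.68 and 12.70 in control, 12.79, 12.74 and 12.70 with the archetype, 13.05, 13.05 and 13.09 with minus2, and 12.35, 12.35 and 12.45 with plus2. Control and archetype overlapped, minus2 lay above them and plus2 below. It rose by 0.38 ± 0.04 with minus2 (limma adjusted p = 4.3e-05) and fell by 0.31 ± 0.04 with plus2 (adjusted p = 0.00013), a difference of -0.68 ± 0.04 for plus2 against minus2 (adjusted p = 1.9e-07).

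TAGLN2, transgelin-2, and CNN3, another calponin, had the opposite order. TAGLN2 was at 12.48, 12.41 and 12.46 in control, 12.30, 12.26 and 12.33 with the archetype, 12.01, 12.06 and 11.98 with minus2, and 12.57, 12.55 and 12.66 with plus2. The minus2 arrays were lowest and the plus2 arrays highest, with no overlap. TAGLN2 fell by 0.43 ± 0.04 with minus2 (limma adjusted p = 2.3e-05), and plus2 exceeded minus2 by 0.58 ± 0.04 (adjusted p = 1.1e-06). Smaller calls of TAGLN2 against control, -0.16 ± 0.04 with the archetype (adjusted p = 0.021) and 0.14 ± 0.04 with plus2 (adjusted p = 0.026), were lost on leaving out single arrays, namely control replicates 1 and 3 and archetype replicates 1 and 2 for the first (0.052 to 0.079), and control replicates 2 and 3 and plus2 replicate 3 for the second (0.054 to 0.095). CNN3 fell by 0.24 ± 0.06 with minus2 (adjusted p = 0.011), and plus2 was higher than minus2 by 0.46 ± 0.06 (adjusted p = 9e-05). Its rise with plus2, 0.22 ± 0.06 (adjusted p = 0.015), was lost without control replicate 2 (0.057) or plus2 replicate 3 (0.053).

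TPM4, a tropomyosin of stress fibres, was at 14.51, 14.34 and 14.40 in control, 14.02, 13.95 and 13.95 with the archetype, 14.20, 14.09 and 14.14 with minus2, and 13.99, 13.96 and 14.01 with plus2. All mimic arrays lay below all control arrays. It fell by 0.44 ± 0.05 (limma adjusted p = 5.9e-05), 0.27 ± 0.05 (adjusted p = 0.0016) and 0.43 ± 0.05 (adjusted p = 4.9e-05). TPM1, by contrast, rose with minus2 (0.21 ± 0.05, adjusted p = 0.0083) and plus2 (0.29 ± 0.05, adjusted p = 0.00077), and CALD1, caldesmon, which holds back myosin on actin, rose with the archetype (0.26 ± 0.05, adjusted p = 0.0019) and plus2 (0.19 ± 0.05, adjusted p = 0.01). TPM2 was not called, at -0.10, -0.11 and -0.11.

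SRF, introduced above, is not among the 55. It was picked for display after its values were seen, so the shares of all genes set beside it and its list are no test. Its mean signal was 8.91 ± 0.11 (SD, n = 3) in control, 9.25 ± 0.06 with minus2, 8.64 ± 0.08 with the archetype and 8.25 ± 0.13 with plus2. SRF fell by 0.27 ± 0.07 with the archetype (limma adjusted p = 0.022), rose by 0.34 ± 0.07 with minus2 (adjusted p = 0.0047) and fell by 0.66 ± 0.07 with plus2 (adjusted p = 3.7e-05). SRF was read in a list of 3 with its coactivators MRTFA and MRTFB. Of these 3, 2 fell and none rose with the archetype and with plus2, where 10.3% and 16.2% of all genes were lower. The highest differences there were 0.13 and 0.12, not called. With minus2 1 rose and 1 fell, with differences from -0.42 to 0.34, against 17.5% of all genes higher and 11.9% lower. SRF binds the CArG box, and promoters of RefSeq (GRCh38.p14, from 250 bases before to 50 after the gene start, the first listed of each gene) were searched for it on both strands, on which it reads alike. The box was present in 4 of the 43 members with a promoter there (9.30%), in 351 of 27305 promoters in all (1.29%) and in 114 of 10718 promoters of tested genes (1.06%). Among promoters of other genes of the same pathways, described further below, 10 of 110 had it (9.09%). The share is thus not particular to the members. A match of letters is a description of the window and not a shown binding site.

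The stretches of 100 bases around the box are shown for all 4 of these members, so that the windows behind the count can be read. Capitals mark the CArG box, and each stretch lies before the gene start on the gene's own strand.
ACTG1: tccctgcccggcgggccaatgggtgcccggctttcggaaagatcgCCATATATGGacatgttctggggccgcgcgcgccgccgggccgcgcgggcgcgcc
CNN2: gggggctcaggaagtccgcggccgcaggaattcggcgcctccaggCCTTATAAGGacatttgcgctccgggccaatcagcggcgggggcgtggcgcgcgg
TPM4: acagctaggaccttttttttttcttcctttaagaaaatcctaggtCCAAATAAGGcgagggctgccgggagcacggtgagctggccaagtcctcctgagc
ROCK2: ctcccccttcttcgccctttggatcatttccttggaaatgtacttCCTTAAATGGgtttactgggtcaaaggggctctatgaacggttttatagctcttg
In GRCh38.p14 they lie at chr17:81512839-81512938 on the minus strand, chr19:1026474-1026573 on the plus strand, chr19:16067320-16067419 on the plus strand and chr2:11345456-11345555 on the minus strand. With plus2 the first 3 of these genes fell, whereas ROCK2 was not called (-0.08 ± 0.08, 95% interval -0.26 to 0.09). Lower with plus2 were also 42% of all tested members, 16.2% of all genes and 26.2% of those at or above the members' median signal. With minus2 CNN2 rose, TPM4 fell, and ACTG1 and ROCK2 were not called. With the archetype ACTG1 and TPM4 fell, and CNN2 and ROCK2 were not called, where 28% of all tested members and 10.3% of all genes were lower. No relation of SRF to these genes was tested.

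Of the 8 tested members that start filaments, 2 were called with the archetype against control (24.6% of all genes). With minus2 3 were called (29.4%) and with plus2 4 (33.6%). These shares are near or below those of all genes at the members' signal. Between plus2 and minus2 7 of the 8 were called, 2 higher and 5 lower, against 38.7% of all genes and 53.6% of those at that signal. Minus2 against the archetype gave 5 calls (24.3% and 38.2%), and plus2 against the archetype 3 (28.9% and 44.3%). DIAPH3, a formin that builds unbranched filaments, was at 11.10, 11.11 and 11.08 in control, 11.46, 11.37 and 11.36 with the archetype, 10.84, 10.92 and 10.92 with minus2, and 11.47, 11.48 and 11.31 with plus2. The archetype and plus2 arrays overlapped above control and the minus2 arrays lay below it. DIAPH3 rose by 0.30 ± 0.05 with the archetype (limma adjusted p = 0.0016) and by 0.32 ± 0.05 with plus2 (adjusted p = 0.00061). With minus2 it was lower by -0.20 ± 0.05 (adjusted p = 0.014), a call lost without minus2 replicate 1 (-0.17, adjusted p = 0.063). Its relative DIAPH1 rose with minus2, by 0.17 ± 0.04 (adjusted p = 0.0093).

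Arp2/3 is the complex that starts branched filaments. Of its 5 subunits among the tested members, 3 were lower with plus2 and none higher, against 16.2% of all genes lower and 17.4% higher. At or above the members' median signal 26.2% of all genes were lower. Subunits such as ARPC1A, ARPC4 and ARPC5L were read only among the other genes of the same pathways. Of the 22 tested genes there that act in starting filaments, 3 were higher and 8 lower with plus2. ACTR3, one of the actin-related cores of Arp2/3, was at 14.90, 14.94 and 14.97 in control, at 14.82 on each archetype array, at 15.03, 15.02 and 15.03 with minus2, and at 14.60, 14.67 and 14.58 with plus2. No groups overlapped, with minus2 highest and plus2 lowest. ACTR3 fell by 0.32 ± 0.04 with plus2 (limma adjusted p = 5.1e-05), and plus2 was lower than minus2 by -0.41 ± 0.04 (adjusted p = 5.8e-06). With the archetype its difference from control, -0.12 ± 0.04 (adjusted p = 0.039), was lost without control replicate 2 or 3, any 1 archetype array or any 1 minus2 array (adjusted p 0.054 to 0.13). ARPC1B fell with plus2 by 0.25 ± 0.04 (adjusted p = 0.00078) and ARPC2 by 0.17 ± 0.04 (adjusted p = 0.0041). ARPC3 was higher with minus2 (0.23 ± 0.06, adjusted p = 0.017), which was lost without control replicate 2 or 3 or minus2 replicate 3 (0.06 to 0.069). ARPC5 was not called (-0.09, -0.11 and -0.03). WASL, which switches the complex on, was not called against control and was higher with plus2 than with minus2 (0.23 ± 0.05, adjusted p = 0.0031).

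ROCK1, the kinase that turns on myosin contraction, was at 12.71, 12.60 and 12.56 in control, 12.40, 12.32 and 12.30 with the archetype, 12.08, 12.08 and 12.18 with minus2, and 12.17, 12.12 and 12.08 with plus2. The isomiR arrays overlapped each other at the bottom, with the archetype between them and control. ROCK1 fell by 0.28 ± 0.05 with the archetype (limma adjusted p = 0.0018), by 0.51 ± 0.05 with minus2 (adjusted p = 2.2e-05) and by 0.50 ± 0.05 with plus2 (adjusted p = 1.7e-05). Both isomiRs were lower than the archetype (-0.23 and -0.22, adjusted p = 0.0069 and 0.0073), and between them the difference was 0.01 with a 95% interval of -0.11 to 0.12.

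RHOB fell only with the archetype among the comparisons with control. Its signal was 7.46, 7.49 and 7.50 in control, 7.17, 6.88 and 7.14 with the archetype, 7.67, 7.52 and 7.47 with minus2, and 7.69, 7.49 and 7.84 with plus2. The archetype arrays lay below the other 9. RHOB fell by 0.42 ± 0.09 (limma adjusted p = 0.0069), and both minus2 (0.49, adjusted p = 0.0026) and plus2 (0.61, adjusted p = 0.00055) were higher than the archetype. RHOC, linked to invasion, fell by 0.24 ± 0.05 with plus2 (adjusted p = 0.0014). RHOA, the main driver of contraction, was lower with plus2 by -0.13 ± 0.05 (adjusted p = 0.047), but this call was lost without any 1 of the 12 arrays except plus2 replicate 3 (adjusted p 0.057 to 0.17) and became 0.01 after quantile normalisation (adjusted p = 0.89). RAC1 and CDC42, which drive the leading edge, were not called, at 0.09, 0.05 and 0.10 for RAC1 and 0.01, 0.04 and 0.02 for CDC42.

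Of the 4 myosin II genes, which code for the contractile motor, none was called with the archetype, 1 fell with minus2 and 2 fell with plus2, against 24.6%, 29.4% and 33.6% of all genes called. MYL12A, a regulatory light chain, was at 14.91, 14.87 and 14.70 in control, 14.93, 14.81 and 14.88 with the archetype, 14.52, 14.46 and 14.38 with minus2, and 14.90, 14.90 and 15.15 with plus2. The minus2 arrays lay below the other 9. It fell by 0.37 ± 0.08 with minus2 (limma adjusted p = 0.003), and plus2 exceeded minus2 by 0.53 ± 0.08 (adjusted p = 0.00017). Its close paralog MYL12B, whose transcripts may share probes with it, was not called (0.10, 0.08 and 0.09). MYL9, the light chain typical of smooth muscle, was lower with plus2 by -0.28 ± 0.08 (adjusted p = 0.015; 0.06 without plus2 replicate 1). MYH9, the heavy chain, was lower with plus2 by -0.14 ± 0.04 (adjusted p = 0.025), lost without control replicate 1 or 2 or plus2 replicate 2 (0.055 to 0.086).

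The mimics were then compared with each other, in the same fit, so that the control arrays enter these contrasts only through the shared estimate of the spread. Without 1 control array the members called were 20 or 21 for minus2 against the archetype and 21 or 22 for plus2 against the archetype. Between plus2 and minus2, whose seeds share the shortest run, 31 of 50 members were called, 11 higher and 20 lower with plus2, against 38.7% of all genes (17.8% higher, 20.9% lower) and 53.6% of those at or above the members' median signal, where 14 of 25 members were called. Minus2 against the archetype gave 23 members, 14 higher and 9 lower, against 24.3% of all genes (12.4% higher, 11.8% lower), and plus2 against the archetype 24 members, 8 higher and 16 lower, against 28.9% (13.0% higher, 15.9% lower). At or above the median signal 11 of 25 members were called in each of these contrasts, against 38.2% and 44.3% of all such genes. Quantile normalisation changed the split of plus2 against minus2 to 16 in each direction and that of plus2 against the archetype to 11 higher and 13 lower. Centring each array on its median instead gave 12 higher and 20 lower, and 9 higher and 14 lower. For minus2 against the archetype the 14 higher and 9 lower became 12 and 11 after centring and 14 and 12 after quantile normalisation. Members with a difference of at least 1.5-fold between plus2 and minus2 were ACTBL2 and FERMT2, higher with plus2, and TLN1, MICAL2, CORO1C and CNN2, lower, against 6.44% of all genes. Of the 1129 genes at or above the members' median signal, 50 were higher by that much and 66 lower. Of the 25 members in that range 0 were higher and 3 lower.

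**Figure D4:**
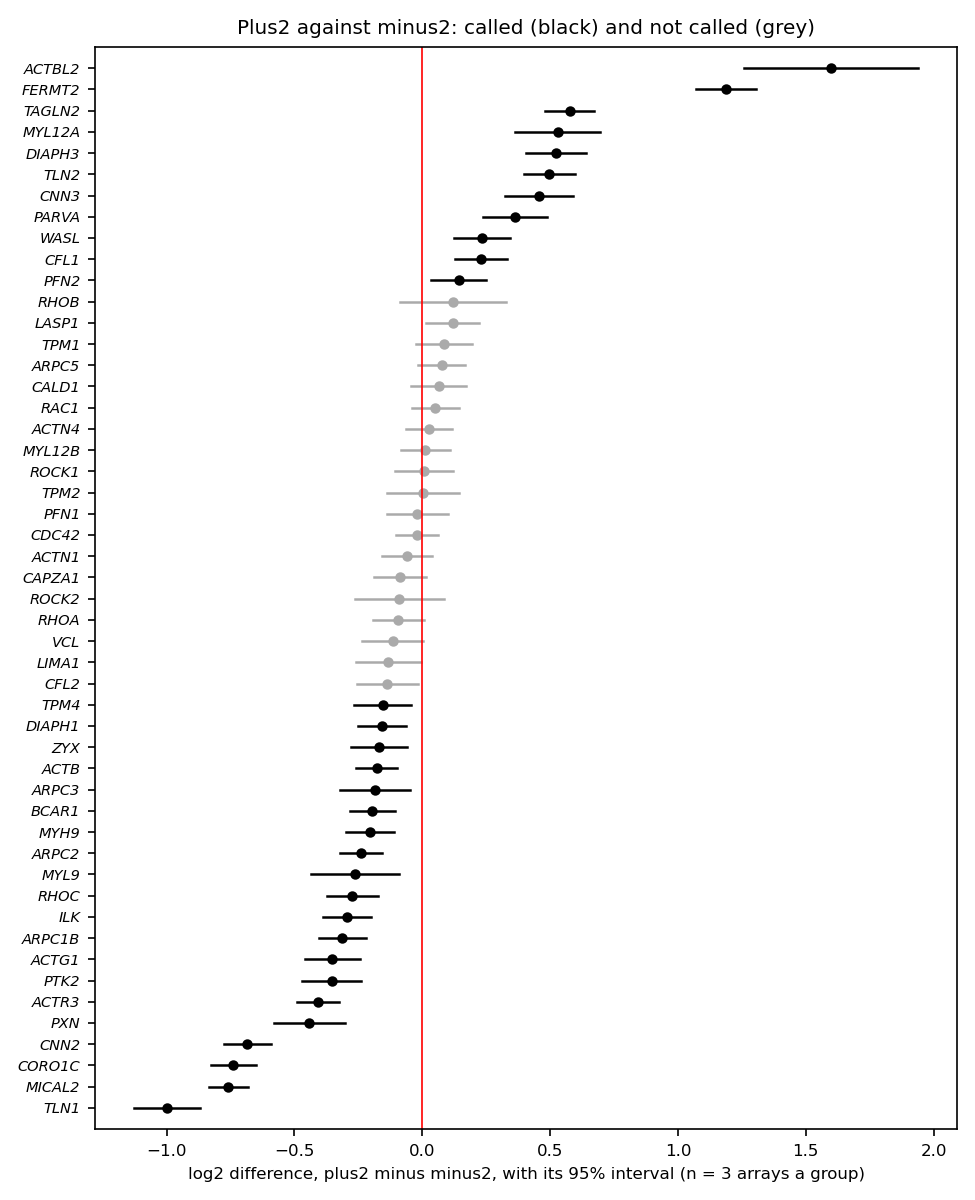
Log2 difference of plus2 from minus2 for the 50 tested members with 95% intervals, black where called. The differences run from -0.998 (TLN1) to 1.60 (ACTBL2), and members such as ROCK1, MYL12B and TPM2 lie close to 0.

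A list of 126 other genes of the same pathways was read in the same fit, and 110 of them were tested. With the archetype 16 were higher and 29 lower, with minus2 22 and 24, and with plus2 23 and 41, with the same background shares of all genes as above. The largest falls with the archetype were those of ENAH, a protein that lengthens filaments at the leading edge (-0.80 ± 0.07, limma adjusted p = 5.8e-06), and MYO1E, a membrane-linked myosin (-0.58 ± 0.08, adjusted p = 0.00025). RAC2 (-0.44 ± 0.11) and the formin FMNL3 (-0.43 ± 0.05) followed. The largest rises were those of MYLK, the kinase of myosin light chains (0.71 ± 0.07, adjusted p = 2.1e-05), and RND3 (0.67 ± 0.04, adjusted p = 8.9e-07), ahead of the spectrin SPTAN1 (0.62 ± 0.05) and the nucleator SPIRE1 (0.55 ± 0.04).

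With minus2 the largest fall was that of CAP2, an actin-binding protein that helps recycle monomers (-0.995 ± 0.09, limma adjusted p = 6e-06), followed by ARHGAP1 (-0.53 ± 0.07), RHOQ (-0.49 ± 0.06) and TGFB1I1, the paxillin relative Hic-5 (-0.47 ± 0.06). The largest rises were those of LIMK1, which inactivates cofilin (0.62 ± 0.07, adjusted p = 4.7e-05), the bundler PLS3 (0.59 ± 0.04), SPIRE1 (0.49 ± 0.04) and WASF3 (0.42 ± 0.06). With plus2 the largest falls were those of RHOG, a Rac-like GTPase (-1.14 ± 0.06, adjusted p = 9e-08), WASF2, which switches on Arp2/3 at the leading edge (2.01-fold lower, adjusted p = 3e-07), ARHGDIA (-0.82 ± 0.05) and PDLIM7 (-0.82 ± 0.05). The largest rises with plus2 were those of NEDD9, a relative of BCAR1 (1.23 ± 0.05, adjusted p = 3e-08), MYLK (1.05 ± 0.07), SPTAN1 (0.92 ± 0.05) and RHOQ (0.69 ± 0.06). RHOQ thus fell with minus2 and rose with plus2, and the direct difference was 1.18 ± 0.06 (adjusted p = 4.5e-08).

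**Figure D5:**
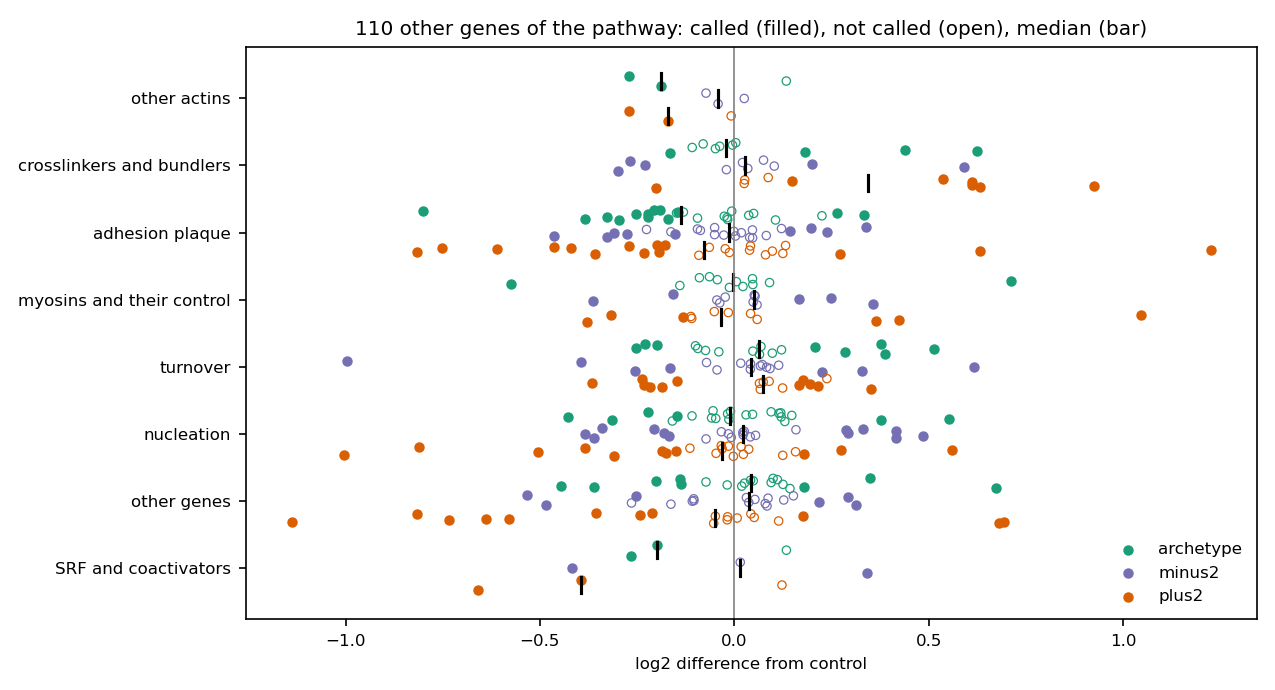
Log2 difference from control of 110 other genes of the actin and adhesion pathways, by role and mimic, filled where called, with a bar at each median. The widest spread was seen with plus2, from -1.14 (RHOG) to 1.23 (NEDD9).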

How the data were processed

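The authors deposited 1 log2 signal per feature and array, and the submitters' processing notes name RMA and Affymetrix Expression Console 1.4.1, with neither settings nor order. The log2 scale was inferred from the values (1.79 to 19.9, array medians 4.73 to 4.80). The genome build and annotation the authors used are not given in the sources used here. Array signals compress differences at low and at saturating levels.

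Of 67528 transcript clusters, 23781 had 1 gene symbol in the platform annotation, 1543 several and 42204 none, and only the first kind was named. RefSeq updated 306 symbols. Group means were fitted with limma 3.58.1 in R 4.3.3 over all 12 arrays (8 residual degrees of freedom), and p-values were adjusted by Benjamini-Hochberg over the genes of each comparison, with 0.05 as the threshold. The fit was tested on simulated data. Groups follow the labels' titles.

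Values are given per array for the 14 members with the widest range of group means among those the F test called, and for the 4 others with the smallest F p. ACTG1, TPM4 and MYL12A were added after their values were seen. Up to 4 called genes per role or direction are named by size. The members and lists were chosen with earlier results of these data known. Alternatives changed normalisation, filter, cluster choice, spread model, replicate block and the arrays included. The summary of 1 role group of members is not reported here.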

Additional observations from a re-analysis of the deposited data

How the results depend on the processing

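The number of members called stayed within 1.5 times of the reported number under all 21 alternatives run. Leaving out 1 array gave 16 to 22 calls for the archetype against control (22 reported), 21 to 25 for minus2 (24), 29 to 35 for plus2 (35), 17 to 23 for minus2 against the archetype (23), 20 to 22 for plus2 against the archetype (24), 27 to 32 for plus2 against minus2 (31) and 38 to 41 for the F test (41). The other alternatives gave 18 to 24, 22 to 26, 27 to 37, 18 to 29, 20 to 24, 28 to 32 and 39 to 43. Of the 159 called member differences, 119 passed under every alternative and 40 were lost under at least 1, while 31 further differences passed under at least 1. The single reversal was RHOA with plus2 against control, at 0.00872 after quantile normalisation. Deviations of same-numbered arrays correlated at -0.04 to 0.27 in 18 pairs (median 0.10), and those of differently numbered arrays at -0.27 to 0.16 in 36 (median -0.03). Since not every pair passed 0.1 and the labels name nothing shared, the numbers were not taken to pair the arrays. With the replicate number as a block the counts were 22, 24, 35, 24, 23, 31 and 41. Signals near the limit of 4.54, such as those of ACTBL2 outside plus2, are not shown to exceed background, which limits the size of its fold.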
